A study of Mus musculus with 6 samples.

Results

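Skeletal muscle differentiation genes were examined in microdissected mouse palates at E13.5, an embryonic age in days. The set held 34 genes of the muscle programme, chosen for their role but with earlier results of these data known. They were factors of muscle progenitors and of differentiation and proteins of the contractile apparatus. The others were subunits of the acetylcholine receptor and proteins of calcium release, energy supply and adhesion. All 34 were measured, by 60 probe sets that carry only that gene's symbol, among 18193 named genes on the Affymetrix Mouse430_2 array. Where 1 value per gene is given, it comes from the gene's probe set with the highest mean. The 2 groups were 3 arrays of Fz1-/-;Fz2-/- palates, called double-null here, and 3 arrays of Fz1-/-;Fz2+/+ palates, called Fz1-null. Every palate lacked Fz1 by genotype, so the comparison addresses the loss of Fz2 on top of it and holds no wild type. Fz1 and Fz2 are Frizzled receptors for Wnt ligands, encoded by Fzd1 and Fzd2. Strain was given as C57BL6/129 mixed background and gender as mixed in both groups. Arrays were numbered 1 to 3 in each group. Embryos, litters and pooling are not given, so every p-value measures the spread between these samples, which may be technical in part.

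Skeletal muscle forms from progenitors that carry Pax7 and that become committed by the MyoD family of transcription factors. Committed myoblasts leave the cell cycle, fuse, and build sarcomeres from embryonic and fetal forms of myosin, actin and troponin, while acetylcholine receptors gather where nerve meets fibre. The muscles of the soft palate arise in this way from head mesoderm, beside a shelf that is mostly mesenchyme of neural crest origin under an epithelium.

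Double-null array 3 stood apart from the other arrays, which touches every result below. Within the arrays numbered 3, 103 of 18193 named genes (0.566%) lay at least 1.5-fold higher on the double-null array, against 33 (0.181%) within the arrays numbered 2 and 12 (0.0660%) within those numbered 1. At least 1.5-fold lower were 30 (0.165%) within number 3, 23 (0.126%) within number 2 and 23 (0.126%) within number 1, so the numbers differed mainly in the higher direction. The log2 values of double-null array 3 also had the smallest spread, with an SD of 1.99 against 2.03 to 2.06 on the other 5 arrays. Arrays of the same number were paired by their deviations, and differences within a number are given throughout beside the group difference. In the check of the genotype, the brightest Fzd2 probe set read 10.21, 10.53 and 10.20 on double-null arrays 1 to 3, against 11.46, 11.60 and 11.64 on the Fz1-null arrays, a log2 difference of -1.25 (SE 0.11). It did not overlap between the groups and had an adjusted p of 0.217 by limma, or 0.00889 with the replicate number as a block. The brightest Fzd1 probe set read 7.43, 7.47 and 7.51 on double-null arrays and 7.40, 7.36 and 7.40 on Fz1-null arrays, and with no wild type it does not check that genotype. Values are the deposited log2 RMA values, which carry no call of whether a transcript was present. Palate mesenchyme markers, 11 of 12 measured, had mean log2 values of 9.82, 9.79 and 9.52 on double-null arrays 1 to 3 and 9.79, 9.83 and 9.81 on Fz1-null arrays.

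No muscle gene passed the test of double-null against Fz1-null palates. The contractile genes differed instead among the double-null arrays. Of the 20 genes for myosins, thin filament and scaffold, all 20 were highest of the 6 arrays on double-null array 3, and 16 were lower on the double-null array within numbers 1 and 2 and higher within number 3. For 10 of the 20, double-null arrays 1 and 2 both lay below every Fz1-null array. Over all named genes the shares for these 3 traits were 25.6%, 10.1% and 5.61%. Over the 34 genes, the median log2 difference, double-null minus Fz1-null, was -0.10 within the arrays numbered 1, -0.19 within those numbered 2 and 0.68 within those numbered 3. The last corresponds to a median 1.61-fold higher value on double-null array 3. Over all 18193 named genes the same medians were -0.0041, -0.0040 and -0.01. Of the 34 muscle genes, 23 were lower on the double-null array within number 1, 32 were lower within number 2 and 33 were higher within number 3.

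The group difference, averaged over the 3 numbers, was positive for 32 of the 34 genes and negative for Pax7 and Mef2c, with a median of 0.09 against -0.01 over all named genes. That sign rested on double-null array 3: without it the median was -0.11 and 28 of the 34 genes were lower in the double-null palates. With array 3 left out of both groups the median was -0.13, again with 28 genes lower. None of the 60 muscle probe sets passed an adjusted p of 0.05 in limma without the block, where each had an adjusted p of 1.00, or with the block, where the lowest was 0.966. The background was 0 of 45037 probe sets (0.00%) without the block and 3 (0.00666%) with it, all of them Fzd2. At an unadjusted p under 0.05, 0 of the 60 lay without the block, against 431 of all probe sets (0.957%). With the block 1 of the 60 did, that of Pax7, against 2121 of all (4.71%), a share of the muscle sets no larger than the background. The groups did not overlap for 0 of the 34 genes, against 846 of all named genes (4.65%).

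By the brightest probe sets, the SD between double-null arrays was larger than that between Fz1-null arrays for every one of the 34 genes. For Myf5 they were nearly equal, at 0.141 and 0.140. Some dimmer probe sets went the other way, such as that of Pax7, at 0.16 against 0.36. The same count over all named genes is not given here. The median range over the 3 arrays was 0.74 on the log2 scale in the double-null group and 0.21 in the Fz1-null group, against 0.22 and 0.18 over all named genes. Double-null arrays 1 and 2 differed from each other by a median of only 0.12. Double-null array 3 had the highest value of the 6 arrays for 31 of the 34 genes, against 25.6% of all named genes. The order low within numbers 1 and 2 and high within number 3 was shown by 21 of the 34, against 10.1% of all. For 13 of the 34, double-null arrays 1 and 2 both lay below every Fz1-null array, against 5.61% of all. At least 1.5-fold higher within number 3 were 19 of the 34 genes, from 1.57-fold for Casq2 to 2.00-fold for Myh8, and 0 reached that fold within number 1 or 2. Because the genes were listed with earlier results of these data known, the shares set beside all named genes are a description and not a test. In bulk tissue, more muscle cells and more muscle RNA per cell cannot be told apart.

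**Figure D1:**
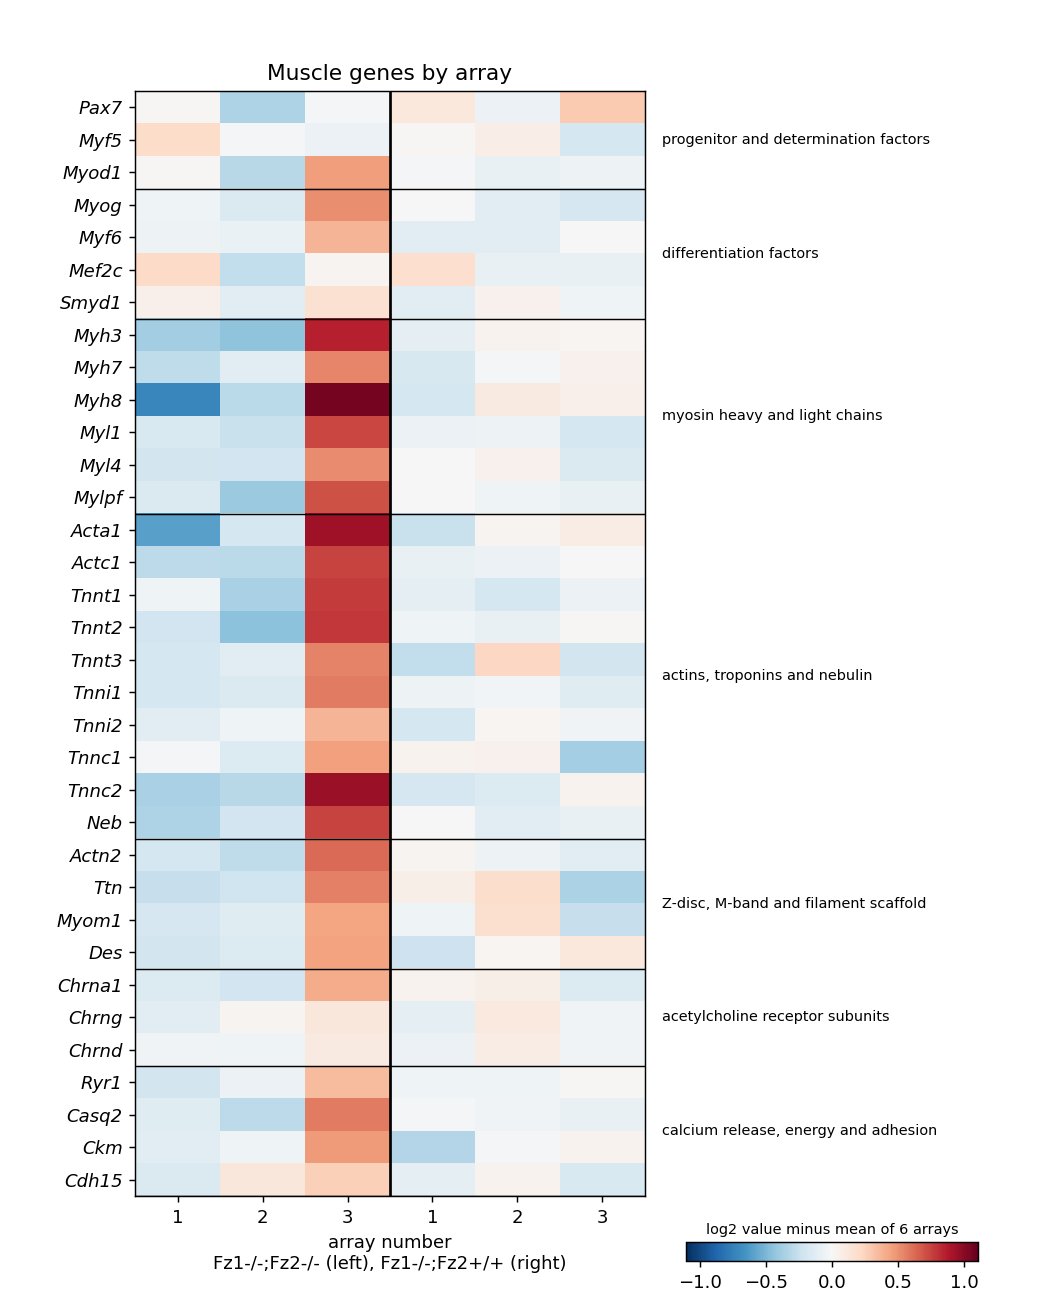
Log2 value of each of the 34 muscle genes (rows, in 7 roles) minus the gene's mean over the 6 arrays (columns), with the 3 double-null arrays left of the line and the 3 Fz1-null arrays right of it. The column of double-null array 3 is red for nearly all contractile genes, highest of the 6 arrays in 31 of the 34 genes, and double-null arrays 1 and 2 are blue for most of them.

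Many muscle genes are known targets of shared regulators, and their promoters were searched for short motifs. They are printed for an actin pair, a receptor subunit and a differentiation factor, beside Pax7, the 1 gene that was lower within all 3 numbers. Promoters here are RefSeq windows of 300 bases, 250 before and 50 after the annotated start, on build GRCm38.p6, found for 28 of the 34 genes in 33 entries. Capitals mark the E-box CANNTG, the letters bound by the MyoD family with their partners, and the CArG box, bound by serum response factor. The windows are chr8:123894726-123895025 (minus strand) for Acta1, chr2:114052826-114053125 (minus) for Actc1, chr2:73580289-73580588 (minus) for Chrna1, chr1:134289754-134290053 (plus) for Myog and chr4:139832919-139833218 (minus) for Pax7, each printed 5′ to 3′ along its gene.
Acta1: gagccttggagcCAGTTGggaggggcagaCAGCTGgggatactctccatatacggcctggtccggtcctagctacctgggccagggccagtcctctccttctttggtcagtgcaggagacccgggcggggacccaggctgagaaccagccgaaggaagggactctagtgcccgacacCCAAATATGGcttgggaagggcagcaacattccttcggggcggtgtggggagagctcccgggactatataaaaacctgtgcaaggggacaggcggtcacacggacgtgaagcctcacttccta
Actc1: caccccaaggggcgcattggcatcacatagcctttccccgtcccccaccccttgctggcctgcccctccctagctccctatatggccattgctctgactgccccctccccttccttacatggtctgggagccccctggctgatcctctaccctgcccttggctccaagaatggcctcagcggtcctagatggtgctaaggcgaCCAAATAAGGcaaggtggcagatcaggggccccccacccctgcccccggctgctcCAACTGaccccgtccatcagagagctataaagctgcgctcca
Chrna1: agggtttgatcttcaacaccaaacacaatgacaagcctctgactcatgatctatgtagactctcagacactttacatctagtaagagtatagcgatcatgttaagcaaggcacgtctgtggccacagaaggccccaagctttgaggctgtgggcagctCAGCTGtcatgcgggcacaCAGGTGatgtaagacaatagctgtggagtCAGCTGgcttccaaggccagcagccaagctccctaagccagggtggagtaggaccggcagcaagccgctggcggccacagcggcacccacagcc
Myog: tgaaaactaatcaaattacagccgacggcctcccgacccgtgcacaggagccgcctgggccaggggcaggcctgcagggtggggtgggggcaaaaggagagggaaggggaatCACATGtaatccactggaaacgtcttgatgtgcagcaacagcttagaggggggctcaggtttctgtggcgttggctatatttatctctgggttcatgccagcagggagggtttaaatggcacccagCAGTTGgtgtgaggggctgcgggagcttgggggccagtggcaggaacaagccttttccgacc
Pax7: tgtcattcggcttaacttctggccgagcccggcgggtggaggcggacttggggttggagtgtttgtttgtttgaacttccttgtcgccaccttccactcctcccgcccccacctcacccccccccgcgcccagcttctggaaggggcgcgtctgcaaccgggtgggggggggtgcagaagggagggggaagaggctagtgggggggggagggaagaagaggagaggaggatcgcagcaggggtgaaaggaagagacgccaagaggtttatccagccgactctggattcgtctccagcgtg

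The 2 actin promoters each held a CArG box, CCAAATATGG at bases 178 to 187 in Acta1 and CCAAATAAGG at bases 204 to 213 in Actc1, counted from the first base of the window. Chrna1 held 3 E-boxes, of which 2 read CAGCTG, at bases 159 to 164 and 207 to 212. Myog held 2, CACATG at bases 113 to 118 and CAGTTG at bases 239 to 244. Pax7 held neither motif in its window, and nor did Myf5, Myl4, Ryr1 and Smyd1, of which Myl4 lay 0.68 log2 units higher within number 3. Searched on both strands over all 32851 windows in the table, CANNTG was in 72.3% and in 27 of the 33 muscle entries (81.8%). CAGCTG, which is 1 form of CANNTG and so counted in both, was in 16.3% of all windows and in 10 muscle entries (30.3%). TATAAA was in 13.6% of all and in 10 muscle entries (30.3%), and CATTCC, the letters of the MCAT element, was in 14.7% of all and in 7 (21.2%). The CArG box was in 1.63% of all and in 3 muscle entries (9.09%), those of Acta1, Actc1 and Myom1. The MEF2 box, in the strict form searched, was in 0.557% of all and in 1 muscle entry, that of Ttn. Looser forms were not counted. The Myog window printed above holds CTATATTTAT, which the strict form does not match. The count therefore does not show that the other muscle windows lack a MEF2 site. A match describes letters and not a bound site.

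Among the progenitor and determination factors, Pax7 was the exception of the whole set. Pax7, the paired-box factor of muscle progenitors and satellite cells, read 8.14, 7.78 and 8.11 on double-null arrays 1 to 3, against 8.24, 8.06 and 8.41 on Fz1-null arrays. It lay lower on the double-null array within each number, with differences of -0.10, -0.27 and -0.30, although the groups overlapped. The mean log2 difference was -0.22 (SE 0.13), with an unadjusted p of 0.124 and an adjusted p of 1.00 in limma, and an unadjusted p of 0.0124 and an adjusted p of 0.966 with the block. Its second, dimmer probe set differed by -0.12 (SE 0.18), with -0.04, 0.02 and -0.35 within numbers 1, 2 and 3. Pax7 is also carried by cranial neural crest, which these arrays cannot separate from muscle progenitors.

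Myod1, the determination factor that commits cells to the muscle fate, read 8.37, 8.05 and 8.82 on double-null arrays and 8.34, 8.28 and 8.31 on Fz1-null arrays. Its highest value was on double-null array 3 and its lowest on double-null array 2, with the Fz1-null arrays within 0.06 of each other. The mean difference was 0.11 (SE 0.17). Myf5, the first of the MyoD family to appear in most muscle, had low log2 values of 5.24, 5.02 and 4.97 on double-null arrays and 5.05, 5.11 and 4.84 on Fz1-null arrays. It did not follow the pattern, with double-null array 3 below 4 of the other arrays, and differed by 0.08 (SE 0.11).

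The differentiation factors were split. Myog, or myogenin, the factor that starts terminal differentiation, read 8.81, 8.70 and 9.37 on double-null arrays and 8.86, 8.74 and 8.68 on Fz1-null arrays. It was 1.61-fold higher on double-null array 3 than on Fz1-null array 3, and within 0.05 log2 units of its partner on arrays 1 and 2. The mean difference was 0.20 (SE 0.17), and -0.00097 without double-null array 3. Myf6, the late member of the MyoD family, read 6.36, 6.35 and 6.79 on double-null arrays and 6.31, 6.30 and 6.41 on Fz1-null arrays, a mean difference of 0.16 (SE 0.13), higher within all 3 numbers.

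Mef2c, a partner of the MyoD family that is also used in heart, endothelium and neural crest, read 10.17, 9.69 and 9.98 on double-null arrays and 10.14, 9.88 and 9.88 on Fz1-null arrays. Double-null array 3 was not the highest for this brightest of its 5 probe sets and was the highest for the other 4. All 5 lay between 0.03 and 0.16 within number 3. Smyd1, a muscle-restricted lysine methyltransferase needed for sarcomere assembly, read 7.71, 7.53 and 7.82 on double-null arrays and 7.54, 7.70 and 7.61 on Fz1-null arrays by its brightest probe set. Its 6 probe sets ranged within number 3 from 0.05 to 0.86, so they disagreed in size and not in sign. Over the 4 differentiation factors the median within number 3 was 0.30, and over the 3 progenitor and determination factors 0.13.

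The myosin chains, the motor of the thick filament, showed the pattern in all 6 members by their brightest probe sets. Each was lower on the double-null array within numbers 1 and 2 and higher within number 3, with medians of -0.18, -0.31 and 0.81. Myh3, the embryonic heavy chain, read 9.22, 9.16 and 10.46 on double-null arrays 1 to 3, against 9.50, 9.64 and 9.62 on Fz1-null arrays. Its 2 lowest values and its highest value were all double-null, and the group means differed by only 0.02 (SE 0.31). Without double-null array 3 that difference was -0.40.

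Myh8, the perinatal heavy chain, read 6.14, 6.57 and 7.91 on double-null arrays and 6.66, 6.96 and 6.91 on Fz1-null arrays. It had the widest swing of the set, -0.52 within number 1 and 1.00 within number 3, and a mean difference of 0.03 (SE 0.40). Myh7, the slow heavy chain shared with the heart, read 6.80, 6.95 and 7.62 on double-null arrays and 6.90, 7.07 and 7.13 on Fz1-null arrays, 1.40-fold higher within number 3, the smallest such difference among the 6. Myl1, the alkali light chain of fast fibres, read 9.62, 9.54 and 10.53 on double-null arrays and 9.73, 9.74 and 9.60 on Fz1-null arrays, with -0.10, -0.19 and 0.93 within numbers 1, 2 and 3.

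Mylpf, the regulatory light chain of fast fibres, read 9.32, 9.07 and 10.18 on double-null arrays and 9.47, 9.43 and 9.40 on Fz1-null arrays. The 3 Fz1-null values lay within 0.08 of each other, above double-null arrays 1 and 2 and below double-null array 3. Myl4, the embryonic and atrial alkali light chain, read 8.92, 8.91 and 9.64 on double-null arrays and 9.13, 9.16 and 8.96 on Fz1-null arrays by its brighter probe set. Its dimmer probe set did not show the pattern: it gave 0.31 within number 1, where the brighter gave -0.21, and 0.03 within number 3, where the brighter gave 0.68.

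Actins, troponins and nebulin, which build and switch the thin filament, numbered 10 genes. All 10 were highest on double-null array 3 and lower on the double-null array within number 2, and 9 were at least 1.5-fold higher within number 3, with a median of 0.79. Acta1, skeletal alpha actin and owner of the first promoter printed above, read 9.36, 9.76 and 10.89 on double-null arrays and 9.72, 9.99 and 10.04 on Fz1-null arrays. Double-null array 1 was its lowest value and double-null array 3 its highest, 1.80-fold above Fz1-null array 3. Actc1, cardiac alpha actin, which embryonic skeletal muscle also uses, read 11.10, 11.09 and 12.13 on double-null arrays and 11.31, 11.32 and 11.38 on Fz1-null arrays. The Fz1-null arrays spanned 0.08 and the double-null arrays more than 1 log2 unit, with a mean difference of 0.10 (SE 0.26).

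Among the troponin T genes, whose products tie the troponin complex to tropomyosin, the embryonic and cardiac Tnnt2 read 7.37, 7.13 and 8.36 on double-null arrays and 7.54, 7.50 and 7.59 on Fz1-null arrays. Its 3 probe sets were 0.29 to 0.93 higher within number 3. Slow Tnnt1 read 8.42, 8.11 and 9.24 on double-null arrays and 8.36, 8.28 and 8.40 on Fz1-null arrays, with the largest mean difference of the 34 genes, 0.24 (SE 0.25), which was -0.08 without double-null array 3. Fast Tnnt3 read 6.11, 6.20 and 6.85 on double-null arrays and 6.04, 6.54 and 6.11 on Fz1-null arrays, and its Fz1-null array 2 lay above double-null arrays 1 and 2.

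The calcium-binding and inhibitory subunits of troponin were likewise highest on double-null array 3. Fast Tnnc2 read 8.43, 8.48 and 9.74 on double-null arrays and 8.60, 8.64 and 8.83 on Fz1-null arrays, 1.87-fold higher within number 3. Slow and cardiac Tnnc1 read 9.20, 9.07 and 9.67 on double-null arrays and 9.26, 9.27 and 8.85 on Fz1-null arrays, and part of its 0.82 within number 3 came from Fz1-null array 3, the lowest of its 6 values. Slow Tnni1 read 9.11, 9.15 and 9.88 on double-null arrays and 9.25, 9.28 and 9.18 on Fz1-null arrays, with double-null arrays 1 and 2 below every Fz1-null array. These subunits form the complex through which calcium switches the filament on. Fast Tnni2 read 7.36, 7.43 and 7.85 on double-null arrays and 7.28, 7.49 and 7.43 on Fz1-null arrays, 1.33-fold higher within number 3. By this brightest probe set it was the 1 gene of this role under 1.5-fold. Its 3 probe sets gave 0.19 to 0.69 within number 3, the largest being 1.61-fold.

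Neb, the giant protein nebulin that runs along the thin filament, read 6.84, 6.98 and 7.92 on double-null arrays and 7.19, 7.07 and 7.10 on Fz1-null arrays. The scaffold of the sarcomere followed it. Actn2, the alpha actinin of the Z-disc, read 8.38, 8.29 and 9.19 on double-null arrays and 8.60, 8.52 and 8.44 on Fz1-null arrays, so that double-null arrays 1 and 2 lay below and double-null array 3 above the whole Fz1-null group. Ttn, or titin, which spans from Z-disc to M-band, read 9.17, 9.20 and 9.98 on double-null arrays and 9.49, 9.62 and 9.07 on Fz1-null arrays. Its lowest value was on Fz1-null array 3, and double-null array 3 lay 0.59 above the Fz1-null mean. The Fz1-null group was wider for Ttn (SD 0.29) than for Actn2 (SD 0.08), though narrower than the double-null group for Ttn (SD 0.46). The 6 probe sets of Ttn gave 0.15 to 0.91 within number 3, and their mean differences ran from -0.07 to 0.13.

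Myom1, a myomesin of the M-band, read 6.75, 6.81 and 7.38 on double-null arrays and 6.90, 7.12 and 6.69 on Fz1-null arrays, 1.61-fold higher within number 3. Fz1-null array 3 was the lowest of its values, and double-null array 3 lay 0.48 above the Fz1-null mean. Des, the muscle intermediate filament desmin, read 8.47, 8.52 and 9.11 on double-null arrays and 8.44, 8.69 and 8.78 on Fz1-null arrays. Desmin had the smallest difference of the scaffold genes within number 3, 0.33, and the scaffold median there was 0.72.

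Subunits of the acetylcholine receptor, through which nerve excites muscle, numbered 3, and 0 reached 1.5-fold within number 3. Chrna1, the ligand-binding alpha subunit, read 7.64, 7.58 and 8.20 on double-null arrays and 7.83, 7.85 and 7.64 on Fz1-null arrays, 1.48-fold higher within number 3. Chrng, the subunit of the fetal receptor, read 7.52, 7.67 and 7.76 on double-null arrays and 7.53, 7.75 and 7.60 on Fz1-null arrays, and its 2 dimmer probe sets lay at 0.09 and 0.12 within number 3. Chrnd, the delta subunit, read 7.07, 7.06 and 7.21 on double-null arrays and 7.05, 7.19 and 7.07 on Fz1-null arrays. Double-null array 3 was the highest of 6 for all 3 subunits, and the median within number 3 was 0.16. For Chrng and Chrnd the difference within number 3, 0.16 and 0.14, was smaller than the range of the 3 Fz1-null arrays.

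The last role joined calcium handling, energy and adhesion. Casq2, the calsequestrin of heart and slow muscle that stores calcium, read 7.69, 7.53 and 8.39 on double-null arrays and 7.80, 7.78 and 7.74 on Fz1-null arrays, and was the only 1 of these 4 past 1.5-fold within number 3, at 1.57-fold. Ryr1, the calcium release channel of skeletal muscle, read 6.70, 6.84 and 7.25 on double-null arrays and 6.86, 6.85 and 6.91 on Fz1-null arrays. Ckm, muscle creatine kinase, read 7.00, 7.08 and 7.59 on double-null arrays and 6.80, 7.10 and 7.17 on Fz1-null arrays. Cdh15, the adhesion protein M-cadherin of myoblasts, read 7.48, 7.77 and 7.91 on double-null arrays and 7.54, 7.69 and 7.47 on Fz1-null arrays. All 4 were highest on double-null array 3. Double-null arrays 1 and 2 lay below every Fz1-null array for Casq2 and Ryr1, and overlapped the Fz1-null arrays for Ckm and Cdh15.

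**Figure D2:**
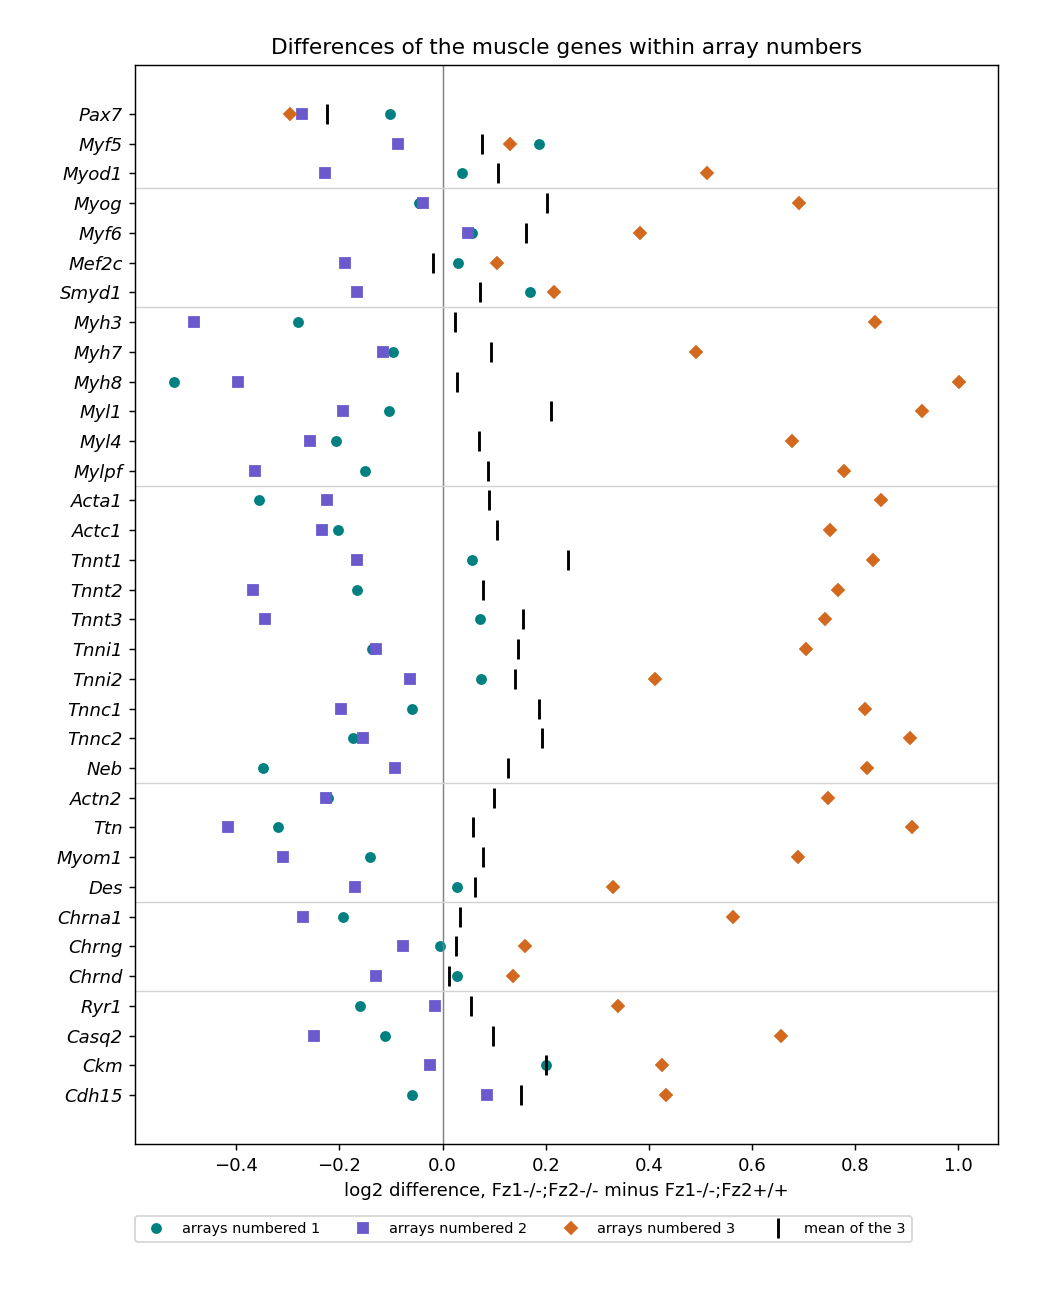
Log2 difference, double-null minus Fz1-null, of each of the 34 muscle genes (rows) within arrays numbered 1 (circles), 2 (squares) and 3 (diamonds), with the mean of the 3 as a bar. The diamonds of 33 genes lie above 0 and reach 1.00 for Myh8, the squares of 32 genes lie below 0, and Pax7 alone has all 3 points below 0.

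Across the 34 genes the differences within the 3 numbers were related. Genes lower within number 1 tended to be lower within number 2 (Pearson r = 0.51, Spearman rho = 0.51) and higher within number 3 (r = -0.59, rho = -0.63), and numbers 2 and 3 gave r = -0.42 (rho = -0.48). Over all named genes the same Pearson values were -0.09, 0.21 and -0.08. The 3 differences share no array, but they do share one normalisation, genes of a cell type are not independent replicates, and these values are given as a description. The difference within number 3 was larger in genes with higher values. Its median was 0.75 in the 17 genes with a mean log2 value of 8 or more and 0.43 in the other 17, and r with the mean was 0.36, against -0.35 over all named genes.

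Several probe sets were present for 12 of the 34 genes, and for all 12 they had the same sign within number 3. In the mean difference only 8 of the 12 kept 1 sign, the others being Chrng, Mef2c, Ryr1 and Ttn. Over the 60 probe sets, 58 were higher within number 3, the 2 others being those of Pax7, and 52 had their highest value on double-null array 3. The pattern changed little under other scalings of the arrays. These could move it little, because the deposited values were already normalised and the array medians ran only from 7.22 to 7.27. With each array centred on its median, the muscle medians were -0.11, -0.18 and 0.66 within numbers 1, 2 and 3, and 19 genes were past 1.5-fold within number 3. After another round of quantile normalisation they were -0.08, -0.21 and 0.70, with 20 genes past 1.5-fold. Double-null array 3 then held the highest value for 29 and 30 of the 34 genes.

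**Figure D3:**
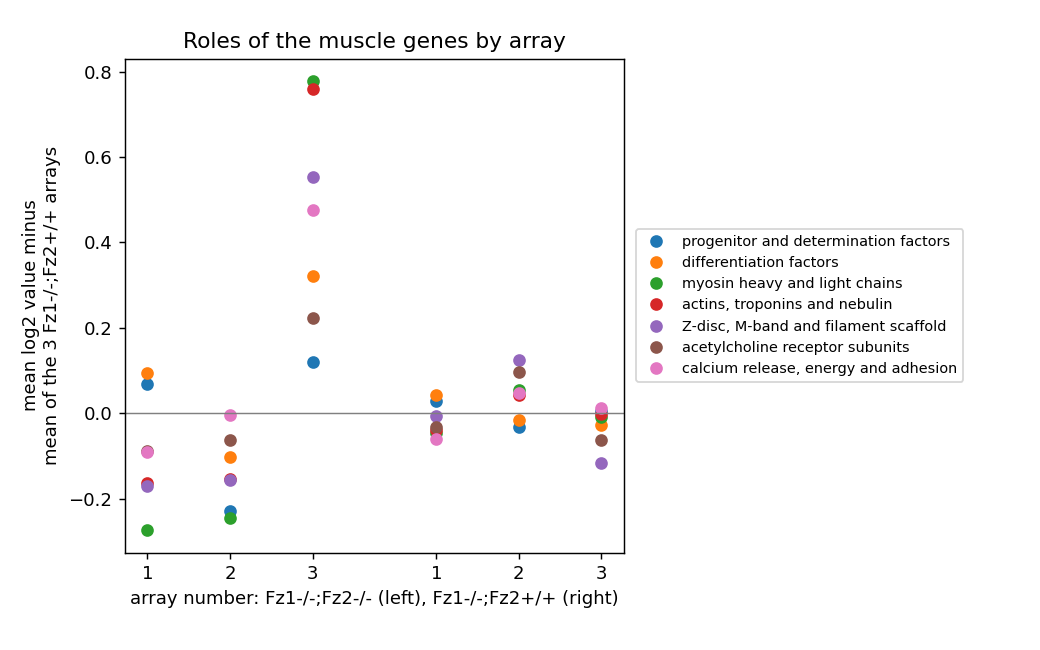
Mean log2 value of the genes of each of the 7 roles, minus its mean over the 3 Fz1-null arrays, on the 3 double-null arrays (left) and the 3 Fz1-null arrays (right). On double-null array 3 the myosin chains and the actins, troponins and nebulin lie furthest up and the progenitor and determination factors lowest, while the Fz1-null arrays stay near 0.

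Beyond the 34 genes, a further list of muscle genes was read on the same scale, and 58 of its 63 members were measured. By the mean difference 37 were higher and 21 lower in the double-null palates, with a median of 0.06, and 0 of their 108 probe sets passed the adjusted p without or with the block. At an unadjusted p under 0.05 there were 2 of the 108 without the block, against 0.957% of all probe sets, and 6 with it, against 4.71%. The groups did not overlap for 4 of the 58 genes, against 4.65% of all named genes. Medians within numbers 1, 2 and 3 were -0.01, -0.06 and 0.22. Within number 3, 43 of the 58 were higher, 5 of them by at least 1.5-fold.

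By sub-role, the further genes of the sarcomere and its assembly (22 measured) had a median of 0.30 within number 3 and those of excitation, calcium and synapse (15 measured) 0.22. Genes of energy metabolism (5) stood at 0.22 and those of fusion and membrane (6) at 0.13. The upstream and head muscle regulators (10) had a median of the other sign, at -0.12 with 8 of 10 lower. They were not uniform. Msc and Tcf21 were the 2 higher, each at 0.27, and both were highest of the 6 arrays on double-null array 3. Among the lower, Pax3 stood at -0.53 and Tbx1 at only -0.05. The difference between these sub-roles was not tested. Mybpc1, a slow myosin-binding protein, read 7.03, 6.80 and 7.82 on double-null arrays and 6.97, 6.93 and 7.07 on Fz1-null arrays, and Myoz2, a Z-disc protein, read 7.25, 7.22 and 7.84 on double-null arrays and 7.23, 7.30 and 7.18 on Fz1-null arrays. Both were highest on double-null array 3, as was Cav3, the muscle caveolin, at 6.21, 6.21 and 6.84 on double-null arrays and 6.04, 6.44 and 6.16 on Fz1-null arrays.

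The 3 regulators with the largest mean differences were not high on that array. Pax3, the paired-box factor of early muscle progenitors and neural crest, read 8.76, 8.79 and 8.65 on double-null arrays and 8.93, 8.80 and 9.18 on Fz1-null arrays, a mean difference of -0.24 (SE 0.11) without overlap of the groups (adjusted p = 1.00). Its lowest value was on double-null array 3, and the mean difference was -0.20 without that array and -0.09 without both arrays numbered 3. Eya2, a transcriptional cofactor upstream of the MyoD family, read 8.09, 8.48 and 8.05 on double-null arrays and 8.36, 8.52 and 8.41 on Fz1-null arrays, a mean difference of -0.22 (SE 0.13). Its lowest value was again on double-null array 3, and the mean difference was -0.14 without it and -0.15 without both arrays numbered 3. Tbx1, the T-box factor of head muscle progenitors, read 8.20, 8.37 and 8.14 on double-null arrays and 7.74, 7.98 and 8.19 on Fz1-null arrays, a mean difference of 0.26 (SE 0.12), with its lowest double-null value on array 3.

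Some of the 34 genes are shared with heart, so heart markers were read beside them. The 12 heart markers had medians of 0.08, -0.08 and 0.17 within numbers 1, 2 and 3, with 0 at 1.5-fold, and mean log2 values of 6.19, 6.11 and 6.27 on double-null arrays and 6.08, 6.22 and 6.11 on Fz1-null arrays. The largest mean difference among them was that of Nppa, a natriuretic peptide, at 0.19 (SE 0.12). Smooth muscle markers (10 measured) were all higher within number 3, with a median of 0.17 and 0 at 1.5-fold. Acta2, smooth muscle actin, read 10.78, 10.61 and 11.19 on double-null arrays and 10.74, 10.68 and 10.68 on Fz1-null arrays, so it was also highest on double-null array 3. Its 0.50 within number 3 lay below the muscle median of 0.68. Myocd, the cofactor that drives smooth muscle genes, differed instead within number 2, by 0.96.

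Markers of the epithelium and mesenchyme lay the opposite way on the same array. All 11 measured oral epithelium markers were lower within number 3, with a median of -0.50 and 4 at least 1.5-fold lower, against the 0.165% of all named genes given above. Their mean log2 values were 9.07, 9.07 and 8.75 on double-null arrays and 9.00, 9.26 and 9.28 on Fz1-null arrays. The lowest was on double-null array 3 and the highest on Fz1-null array 3, so the difference within number 3 draws on each. Krt14, a keratin of basal epithelium, read 9.20, 8.97 and 8.69 on double-null arrays and 9.10, 9.33 and 9.54 on Fz1-null arrays, and Trp63, the basal epithelial transcription factor, 8.46, 8.24 and 7.71 on double-null arrays and 8.46, 8.54 and 8.41 on Fz1-null arrays. Palate mesenchyme markers were lower within number 3 for 10 of 11, with a median of -0.33, among them Msx1 at -0.61 and Shox2 at -0.50, transcription factors of the anterior shelf. Meox2 was the exception, at 0.54. These lists hold bright genes, and over all named genes the difference within number 3 fell as the mean log2 value rose (r = -0.35). How far that trend bears on the lists was not tested. How far the differences in other cell types bear on the muscle values was not tested either.

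Of the nerve markers (8 measured), 6 had the order of most muscle genes, low within numbers 1 and 2 and high within number 3. Their medians were -0.37, -0.22 and 0.11 within numbers 1, 2 and 3, and all 8 were lower within number 1 and higher within number 3. Prph, the intermediate filament peripherin of peripheral neurons, read 9.63, 9.13 and 9.81 on double-null arrays and 10.20, 9.50 and 9.76 on Fz1-null arrays, a mean difference of -0.30 (SE 0.22). Its highest value was on Fz1-null array 1 and not on double-null array 3. Markers of tendon and muscle connective tissue (6) had a median of 0.09 within number 3, which hides a split. Scx (0.54), Thbs4 (0.46) and Tnmd (0.35) were higher there, and all 3 were highest on double-null array 3. Mkx (-0.25), Tcf7l2 (-0.25) and Tcf4 (-0.18) were lower. The tendon factor Scx, at 7.38, 7.43 and 7.50 on double-null arrays and 7.19, 7.28 and 6.96 on Fz1-null arrays, did not overlap between the groups (0.29 (SE 0.10), adjusted p = 1.00). Endothelium (6), blood (5) and cartilage and bone (6) had medians of -0.03, -0.02 and -0.04 within number 3.

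**Figure D4:**
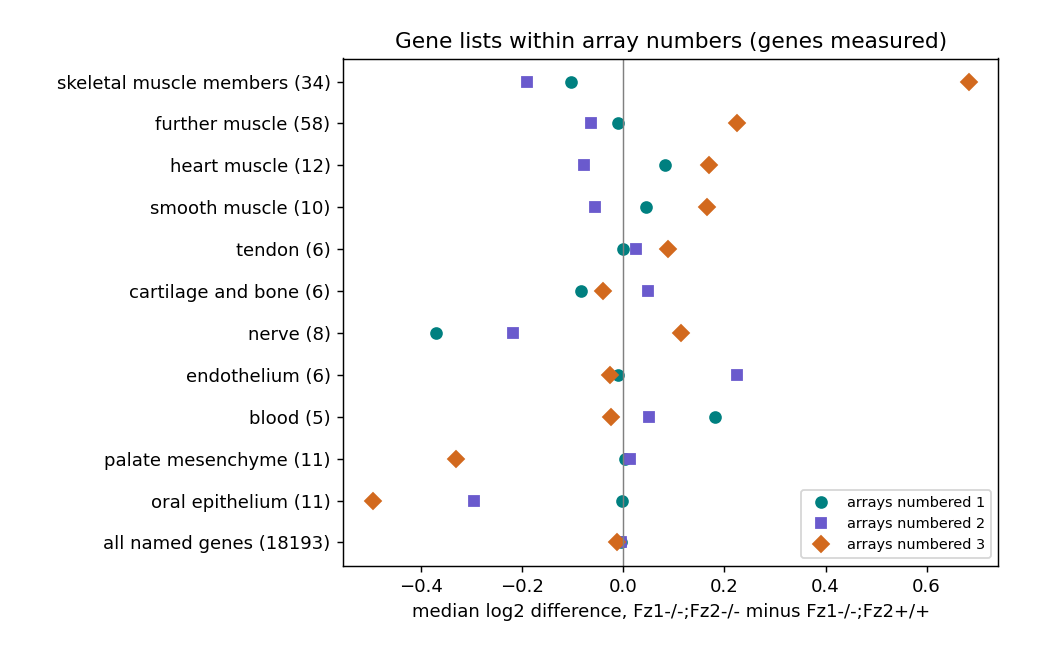
Median log2 difference, double-null minus Fz1-null, of each gene list within arrays numbered 1, 2 and 3, with the number of genes measured in brackets. The 34 muscle genes lie furthest to the right within number 3, at 0.68, palate mesenchyme and oral epithelium furthest to the left, at -0.33 and -0.50, and all named genes at -0.01.

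In the authors' deposited table, whose fold changes run as Fz1-null minus double-null, no muscle probe set had an unadjusted p under 0.05. The smallest there was 0.0955, for a dim probe set of Tnni2 with a log2 fold change of -0.11 in that direction.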

How the data were processed

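Total RNA of 6 palate samples was hybridised to 1 array each. The log2 probe set values were made by the authors with RMA, per the submitters' processing notes, and its version is not given in the sources used here. RMA equalises the distributions of the arrays, which hides a change common to most genes. The authors' deposited table holds a log2 fold change, a signed fold change and an unadjusted p-value per probe set, per the file headers, and its test is not named. The sign of its log2 values was found by setting them against the group means (largest difference 4.93e-08).

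Of 45101 probe sets, 64 controls were left out. Symbols came from the platform annotation, updated through Entrez identifiers to RefSeq (GRCm38.p6): 34945 probe sets had 1 symbol (34741 matched), 932 several and 9160 none. limma 3.58.1 in R 4.3.3 (lmFit, eBayes, two-sided) was fitted to the 6 arrays by genotype alone, and Benjamini-Hochberg adjustment ran over 45037 probe sets at 0.05. SE is limma's and SD that of 3 arrays. An exact permutation test of 3 against 3 cannot give a p below 0.1 and was not used. The labels do not say what a replicate number shares. Deviations from group means correlated at 0.63, 0.44 and 0.63 between arrays of the same number and at -0.16 to -0.45 otherwise, so the numbers were taken as pairs and a fit with the number as a block was run. The fits were tested on simulated data of independent noise. Those data held no shared replicate effect and no array unlike the others, so neither condition was checked.

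The 34 genes and all lists were chosen with earlier results of these data known. Named were all 34, Fzd1 and Fzd2, and genes among the 6 of each other list with the largest absolute mean difference. Msc and Tcf21 were named as the 2 upstream and head muscle regulators higher within number 3. Listed genes without a value are not analysed here. The promoters printed were picked by role, and that of Pax7 for its values. Alternatives were an intensity trend, array weights, brighter probe sets alone, other scalings, mean probe sets, the block, and each array or number left out; the block without each number, the deposited p-values with adjustment, and the Hox genes were added after the data were seen.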

Additional observations from a re-analysis of the deposited data

How the results depend on the processing

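The count of all probe sets past the threshold was 0, and became 3 with the replicate block, all of Fzd2, and 93, 3 and 3 with that block and without replicate 1, 2 and 3. The block, by the pairing of array numbers found in the data, changed no other count at an adjusted p of 0.05 and no call among the 34 genes. Muscle counts were 0 under every alternative run. The muscle median ran from -0.13 to 0.25 and that of further muscle genes from -0.04 to 0.14 over the leave-one-out settings, both negative without double-null array 3 or without both arrays numbered 3, and the muscle median was 0.01 with array weights. Signs of single genes turned mostly in those settings, 26 of 34 in each, while leaving out Fz1-null array 1 turned 7 and Fz1-null array 3 turned 5. Array weights turned 13 genes: Myh8 to -0.16, Myh3 to -0.13, Acta1 to -0.074, Tnnt2 to -0.052, Chrna1 to -0.031, Ttn to -0.025, Mylpf to -0.025, Des to -0.024, Actc1 to -0.017, Chrnd to -0.0098, Myl4 to -0.0094, Myh7 to -0.0012 and Ryr1 to -0.00021. Repeated quantile normalisation turned Mef2c to 0.011. The cause was not tested.
Over the leave-one-out settings, the log2 differences that changed sign ran from -0.0032 to 0.16 for Myf5, -0.094 to 0.29 for Myod1, -0.042 to 0.33 for Myog, -0.13 to 0.11 for Mef2c, -0.40 to 0.28 for Myh3, -0.15 to 0.25 for Myh7, -0.49 to 0.39 for Myh8, -0.15 to 0.41 for Myl1, -0.23 to 0.24 for Myl4, -0.26 to 0.32 for Mylpf, -0.35 to 0.41 for Acta1, -0.24 to 0.28 for Actc1, -0.083 to 0.48 for Tnnt1, -0.29 to 0.32 for Tnnt2, -0.14 to 0.41 for Tnnt3, -0.13 to 0.29 for Tnni1, -0.00998 to 0.24 for Tnni2, -0.13 to 0.38 for Tnnc1, -0.23 to 0.42 for Tnnc2, -0.22 to 0.37 for Neb, -0.22 to 0.26 for Actn2, -0.37 to 0.29 for Ttn, -0.23 to 0.27 for Myom1, -0.14 to 0.18 for Des, -0.23 to 0.18 for Chrna1, -0.041 to 0.0898 for Chrng, -0.051 to 0.082 for Chrnd, -0.11 to 0.17 for Ryr1 and -0.18 to 0.27 for Casq2.
With 3 arrays a group, small differences are not detectable here. Large ones can be missed too: in limma without the block even Fzd2, at -1.25, had an adjusted p of 0.217. Probe sets near the bottom of the scale, such as that of Myf5, carry little signal over background. Groups of 3 arrays were not screened for outlying arrays.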

Other observations

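The genes below were chosen after their values were seen. The largest difference within number 3 over all named genes, each by its probe set with the highest mean, was that of Hoxb5, a homeobox gene of the posterior body axis, at 6.33, 6.09 and 8.89 on double-null arrays 1 to 3, against 6.09, 6.26 and 6.37 on Fz1-null arrays, 5.74-fold higher within number 3. Of 33 Hox genes measured, 29 were higher within number 3, 11 by at least 1.5-fold, and their median was 0.23. Hoxb6 (3.58-fold), Hoxc4 (3.11-fold) and Hoxd3 (2.49-fold) followed it. Neuronal genes were there too: Neurod6, a transcription factor of forebrain neurons, read 3.86, 3.75 and 5.86 on double-null arrays and 4.07, 3.67 and 3.64 on Fz1-null arrays, and Lamp5, a membrane protein of neurons, read 6.46, 6.72 and 8.98 on double-null arrays and 6.58, 6.48 and 6.66 on Fz1-null arrays. In all of these, double-null arrays 1 and 2 lay closer to the Fz1-null arrays than double-null array 3 did.

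Among the 100 named genes with the largest difference within number 3 were 19 of the 34 muscle genes, 5 further muscle genes and 10 Hox genes. Smpx, a small protein of striated muscle on neither list, differed there more than any of the 34, with 5.54, 5.58 and 6.83 on double-null arrays and 5.79, 5.70 and 5.72 on Fz1-null arrays. Its double-null arrays 1 and 2 lay below every Fz1-null array, as they did for 13 of the 34 muscle genes and for 5.61% of all named genes. The same held for 1 of the 33 Hox genes and 1 of the 8 nerve markers. Nothing in these values was tested beyond the fit over all probe sets, in which these genes had adjusted p of 1.00.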
